A study of Mus musculus with 36 samples.

Results

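The genes examined were *Ikzf1*, *Ikzf2*, *Ikzf3*, *Irf4*, *Irf8* and *Spib*, the Ikaros family members, interferon regulatory factors and ETS factor associated with the step from pro-B to pre-B cells. They were chosen by name, and each has a row in all 3 RNA-seq tables, so that they make up 6 of 46078 genes in the table of sorted cells, 6 of 35896 in the table of Pax5-/- cultures and 6 of 18721 in the table of Sirt7-/- and wild-type cultures. Pax5 ChIP–seq peaks were examined over each gene body and the 10 kb upstream. SIRT7 is a nuclear NAD-dependent deacylase, Pax5 is the transcription factor that commits progenitors to the B lineage, and the study asked how SIRT7 and the acetylation state of K198 of Pax5 bear on early B cell development.

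The first RNA-seq table held bone marrow pro-B cells (CD43+) and pre-B cells (CD43-), sorted among B lineage cells that were B220+ and IgM-, from 2 wild-type and 2 Sirt7-/- mice on the 129Sv background, with both stages taken from each mouse. Sirt7-/- was a germline deletion, carried by every cell of the animal. The next held Pax5-/- pro-B cells (C57BL/6 background), grown on OP9 feeder cells with IL-7, SCF and FLT3-L and infected with a bicistronic retrovirus encoding only the selection marker (EV) or the marker with wild-type Pax5 (Pax5WT), the acetylation mimic K198Q (lysine to glutamine) or the non-acetylatable K198R (lysine to arginine). The labels give bone marrow as the source of these cells and the methods give fetal liver. The last table held cultured pro-B cells (129Sv background), either wild-type with EV or Sirt7-/- with EV, Pax5WT or K198R. They were likewise grown on OP9 feeder cells with IL-7, SCF and FLT3-L. In these the viral Pax5 was added to cells with their own *Pax5*. Each group had 2 libraries. The methods give hCD4 or GFP as the marker and sorting for hCD4 as the selection of transduced pro-B cells. For the Sirt7-/- cells with Pax5WT or K198R the paper names GFP. ChIP–seq with an antibody to Pax5 was performed on Pax5-/- pro-B cells expressing Pax5WT, K198Q or K198R, with 2 peak lists for each form. In the labels, some sorted libraries carry a cell type entry that differs from their title and description, and the title was followed here. The sorted libraries held 50004827 to 55536608 reads. The library sums of normalized counts lay from 28865461 to 30520853 in the Pax5-/- cultures and from 27814214 to 30160880 in the other cultures, whose read depth is unknown here. With 2 libraries against 2, an exact permutation test of a single gene cannot fall below p = 0.333, and p-values below come from a model fitted across all genes (limma).

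Ikaros, encoded by *Ikzf1*, and Aiolos, encoded by *Ikzf3*, are zinc finger proteins that bind DNA as dimers, recruit the NuRD chromatin remodeling complex and oppose the proliferation that IL-7 and the pre-BCR sustain, whereas Helios, encoded by *Ikzf2*, belongs to the same family and is best known in T cells and early progenitors. IRF4 and IRF8 bind DNA weakly alone and more strongly together with ETS factors such as PU.1 and SPI-B on composite elements, and cells that lack both fail to leave the large pre-B stage. Downstream of the pre-BCR, IRF4 induces Aiolos and Ikaros, light chain rearrangement starts and IL-7 signaling is lowered.

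The sequences on which the binding data turned were introns and an upstream region that carried the strongest or most shared Pax5 peaks of *Ikzf3*, *Irf4*, *Irf8* and *Spib*. Each is shown as a window centred on the summit, read 5′ to 3′ on the strand of the gene from the RefSeq mouse genome (GRCm38, the assembly of mm10), in lower case, with capitals marking a match to a searched motif. The motifs were the Pax5 core GCGTGAC or its looser form GCNTGAC, the Ikaros core TGGGAA, and the ETS-IRF and interferon-type elements GGAANNGAA and GAAANNGAA, on both strands. The *Ikzf3* window (chr11:98493171-98493371) lay in an intron 52.8 kb after the gene start and held none of them. The *Irf4* windows lay in introns 2.13 kb (chr13:30751253-30751453) and 12.4 kb (chr13:30761524-30761724) after the start. The *Irf8* windows lay in introns 9.87 kb (chr8:120746131-120746331) and 11.1 kb (chr8:120747393-120747593) after the start. The *Spib* window (chr7:44536314-44536514) lay 4.34 kb before the start, inside an intron of the neighboring gene *Pold1*.
Ikzf3 intron, peak of all 3 forms: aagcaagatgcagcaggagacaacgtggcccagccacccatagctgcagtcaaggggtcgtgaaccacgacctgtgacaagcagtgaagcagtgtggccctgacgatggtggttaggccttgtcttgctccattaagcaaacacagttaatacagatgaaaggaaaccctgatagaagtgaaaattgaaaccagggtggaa
Irf4 intron near the start: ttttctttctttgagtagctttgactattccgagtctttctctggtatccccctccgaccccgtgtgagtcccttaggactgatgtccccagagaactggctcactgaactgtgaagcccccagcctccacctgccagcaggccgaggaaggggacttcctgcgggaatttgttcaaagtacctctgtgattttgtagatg
Irf4 distal intron: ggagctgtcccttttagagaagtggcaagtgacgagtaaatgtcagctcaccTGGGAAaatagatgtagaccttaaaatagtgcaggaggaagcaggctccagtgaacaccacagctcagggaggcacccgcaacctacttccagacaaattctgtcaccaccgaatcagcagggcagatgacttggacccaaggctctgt
Irf8 intron, ETS-IRF element: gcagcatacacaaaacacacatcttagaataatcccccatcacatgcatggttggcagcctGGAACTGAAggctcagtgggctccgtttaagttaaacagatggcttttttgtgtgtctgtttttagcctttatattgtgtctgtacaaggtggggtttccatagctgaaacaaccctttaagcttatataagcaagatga
Irf8 intron, looser Pax5 core: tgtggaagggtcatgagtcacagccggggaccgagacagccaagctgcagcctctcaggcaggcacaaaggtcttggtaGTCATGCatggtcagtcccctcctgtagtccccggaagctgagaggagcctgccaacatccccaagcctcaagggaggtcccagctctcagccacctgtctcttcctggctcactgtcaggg
Spib upstream region, Pax5 core: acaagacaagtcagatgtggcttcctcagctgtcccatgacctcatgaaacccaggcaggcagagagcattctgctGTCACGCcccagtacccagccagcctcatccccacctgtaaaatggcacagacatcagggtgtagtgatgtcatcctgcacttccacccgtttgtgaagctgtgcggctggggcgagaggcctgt

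The targeted gene was examined first. In pro-B cells, *Sirt7* was at 2692 and 2533 normalized counts with the wild-type allele and at 363 and 366 in Sirt7-/- mice, and at 5613 and 5219 against 1066 and 821 in pre-B cells. The normalized count here is the estimated read count of a gene scaled between the libraries of a table. *Sirt7* was 7.14-fold lower in Sirt7-/- pro-B cells (log2 fold change of -2.84 ± 0.14 (SE), adjusted p = 0.00292) and 5.78-fold lower in Sirt7-/- pre-B cells (adjusted p = 0.00931). In the cultures it was at 1324 and 905 in the wild-type libraries and between 325 and 407 in the 6 Sirt7-/- libraries. *Pax5* itself was at 2201 and 2103 in Pax5-/- cells with EV, 6458 and 6152 with Pax5WT, 8918 and 8963 with K198Q, and 21162 and 16610 with K198R. The deposited values do not separate transcripts of the inactive *Pax5* allele from those of the virus. The forms were thus not expressed at one level: the *Pax5* transcript was 2.97-fold higher with K198R than with Pax5WT (adjusted p = 0.0029), and its part in any difference between forms was not tested.

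Markers of the labelled cells were present. *Cd79a*, a subunit of the antigen receptor, was between 117575 and 282297 in the sorted libraries, and *Spn*, which encodes the CD43 used for the gate, was between 16909 and 21895 in pro-B cells and between 5442 and 7600 in pre-B cells. In Pax5-/- cells *Cd79a*, a direct target of Pax5, was at 2282 and 2247 with EV and at 13596 and 14081 with K198R. *Cd3e*, which marks T cells, was at 0 in the 4 sorted pre-B libraries and between 10.1 and 44.8 in pro-B libraries.

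The level of each gene was first compared between sorted stages, which addressed how these factors change as pro-B cells become pre-B cells. All 6 genes changed, *Ikzf1*, *Ikzf3*, *Irf4*, *Irf8* and *Spib* upward and *Ikzf2* downward, in mice of both genotypes. In wild-type cells 7090 of 17649 genes tested passed the same threshold, which is 40.2% of them, and in Sirt7-/- cells 6293 genes, 35.7%. The largest of the 5 increases belonged to *Spib* and *Ikzf3*. Because these are bulk samples of sorted cells, fewer cells of a type and less RNA per cell cannot be told apart.

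*Spib* encodes SPI-B, the ETS factor that shares binding sites with PU.1 and partners IRF4 and IRF8. In wild-type mice it was at 50682 and 52162 normalized counts in pro-B cells and at 196367 and 208514 in pre-B cells. Among Sirt7-/- libraries it was at 39588 and 38557 in pro-B and at 172811 and 153494 in pre-B cells. Every pre-B library was thus far above every pro-B library, and the rise was 3.94-fold in wild-type (log2 fold change of 1.98 ± 0.08, adjusted p = 9.41e-05) and 4.17-fold in Sirt7-/- mice (2.06 ± 0.08, adjusted p = 7.72e-05). *Ikzf3*, encoding Aiolos, was at 16159 and 13868 in wild-type pro-B cells and at 43033 and 45594 in wild-type pre-B cells. Without SIRT7 it was at 9970 and 10511 in pro-B cells and at 39544 and 38940 in pre-B cells. It rose 2.96-fold in wild-type (1.57 ± 0.09, adjusted p = 0.000126) and 3.83-fold in Sirt7-/- mice (1.94 ± 0.09, adjusted p = 0.000112), again with no overlap between stages, as held for 72.6% of all genes tested in wild-type and 69.8% in Sirt7-/- mice.

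*Irf4*, the factor that lies between the pre-BCR and light chain rearrangement, was at 22107 and 23073 in wild-type pro-B cells and at 34036 and 40383 in pre-B cells, a 1.64-fold rise (0.72 ± 0.09, adjusted p = 0.00134). In those lacking SIRT7 it was at 17582 and 18056 in pro-B cells and at 28185 and 28776 in pre-B cells, 1.60-fold and 1.59-fold higher in pre-B cells within the 2 mice. *Irf8*, whose product overlaps in function with IRF4, was at 10928 and 12466 in wild-type pro-B cells and at 16930 and 17470 in pre-B cells (0.56 ± 0.11, adjusted p = 0.00675). Sirt7-/- mice had values of 12452 and 13799 at the pro-B stage and of 18125 and 20990 at the pre-B stage (0.57 ± 0.11, adjusted p = 0.00762). Both interferon regulatory factors rose in each genotype, with no overlap between stages.

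*Ikzf1* changed least. It was at 19992 and 19773 in wild-type pro-B cells and at 24022 and 23630 in pre-B cells, 1.2-fold higher in pre-B cells of each mouse (0.26 ± 0.07, adjusted p = 0.019). That call was lost when any of the 4 wild-type libraries was left out, with adjusted p between 0.0563 and 0.0885. In Sirt7-/- mice it was at 16469 and 15975 in pro-B cells and at 21827 and 21280 in pre-B cells (0.41 ± 0.07, adjusted p = 0.00409). *Ikzf2*, the gene of Helios, was the exception in level and in direction. It was at 83.2 and 110 in wild-type pro-B cells (89 and 118 reads) and at 5.23 and 18.6 in pre-B cells (5 and 17 reads), a fall of 3.13 ± 0.58 on the log2 scale (adjusted p = 0.00547). The difference was -2.30 without wild-type pre-B replicate 1 and -3.96 without replicate 2, and it passed in both fits. Without SIRT7 its level was 107 and 130 at the pro-B stage and 25.6 and 41.1 at the pre-B stage (-1.83 ± 0.58, adjusted p = 0.046), a call that was lost in 6 of 8 fits without 1 library and when genes of low values were kept in the fit (adjusted p = 0.0834). The fall was seen in each of the 4 mice and ranged from 3.17-fold to 15.9-fold.

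**Figure D1:**
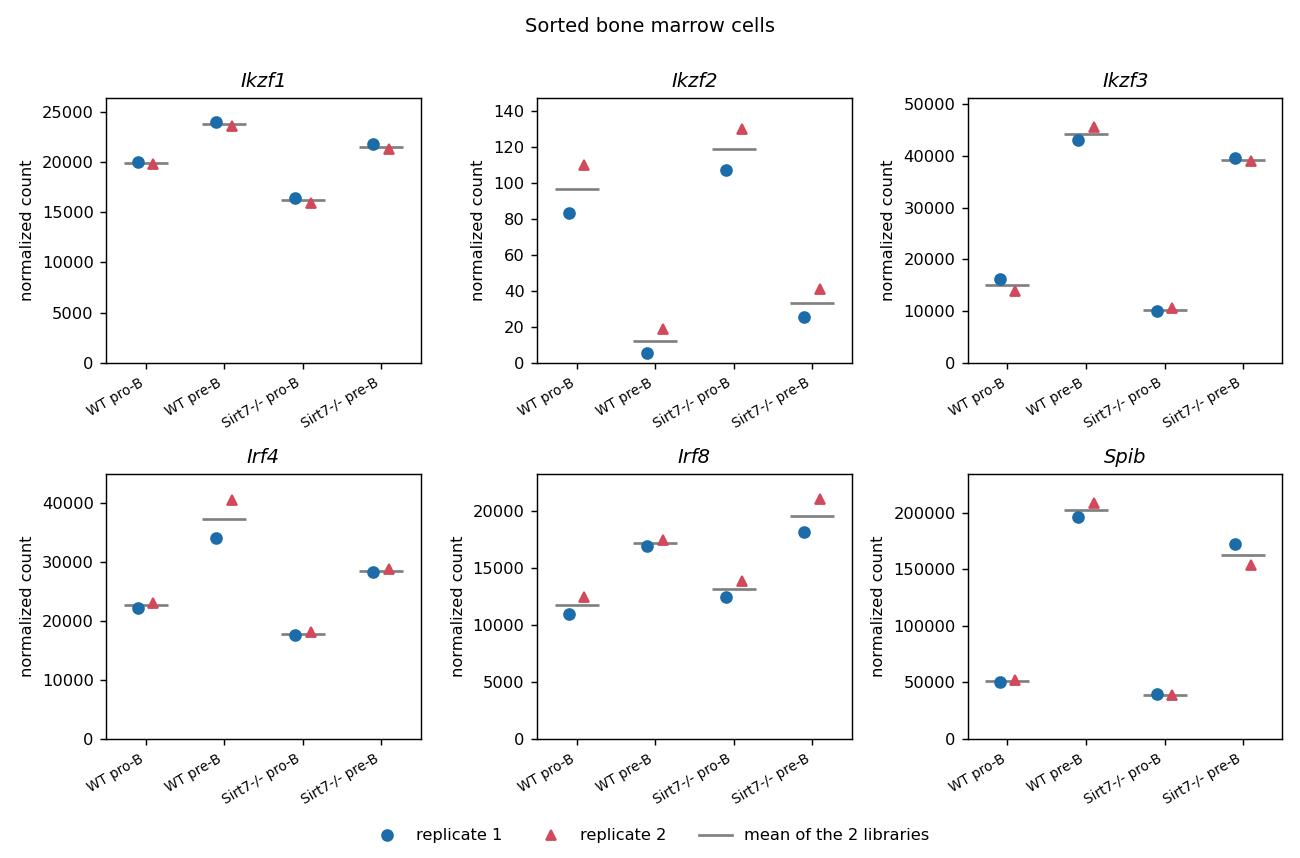
Normalized counts of the 6 genes (linear axis from 0) in the sorted libraries, with a circle for replicate 1, a triangle for replicate 2 and a line at the mean of the 2 libraries. The 5 rising genes are higher in the pre-B libraries of a genotype than in its pro-B libraries, *Ikzf2* is lower, and *Spib* moves from between 38557 and 52162 to between 153494 and 208514.

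The wider pre-B program moved with them. Of 17 genes of pre-B differentiation, 15 rose and none fell in wild-type mice (median on the log2 scale of 1.05, against -0.04 over all genes tested), and the counts were the same in Sirt7-/- mice (median of 0.98). Among them *Il2ra*, the CD25 chain that marks small pre-B cells, rose 7.29-fold, *Ms4a1* (CD20) 14.5-fold and *Syk*, the kinase that transmits the pre-BCR signal, 2.92-fold in wild-type mice. Of 12 genes of pro-B and large pre-B cells, 10 fell and 1 rose in wild-type mice (median of -3.17), among them the surrogate light chain genes *Igll1* (-5.09 ± 0.51) and *Vpreb1* (-5.73 ± 0.48) and *Dntt*, which adds bases at junctions (-7.30 ± 0.87), while *Vpreb3* rose (0.60 ± 0.08). In Sirt7-/- mice 9 fell and 1 rose.

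Among 9 other Ikaros and IRF genes, 5 rose and none fell in wild-type mice, namely *Irf5* (1.58 ± 0.17), *Irf9* (1.19 ± 0.10), *Irf1* (0.71 ± 0.11), *Irf3* (0.58 ± 0.09) and *Irf2* (0.34 ± 0.11), and the count was the same in Sirt7-/- mice. Of 7 ETS genes, 4 rose and 1 fell. *Spi1*, which encodes PU.1, rose 1.81-fold, *Spic*, encoding another member of the ETS subfamily of PU.1 and SPI-B, rose 6.72-fold, and *Erg* fell by 5.01 ± 0.50 on the log2 scale. Of 12 NuRD subunits, the complex that Ikaros proteins recruit, 7 fell, none rose and 5 were not called in wild-type mice (median of -0.36), and those that fell included *Mta1* (-1.20 ± 0.11) and *Rbbp7*, a histone-binding subunit (-1.19 ± 0.24). In Sirt7-/- mice 6 fell, 5 were not called and 1, *Chd3*, rose (0.28 ± 0.09). Of 8 early B lineage factors 4 rose and 1 fell in wild-type mice, the fall being *Lef1* (-2.05 ± 0.23).

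Markers of other cells also moved between stages. All 8 mature B cell markers rose in wild-type pre-B cells (median of 1.97), their sum lying between 58433 and 73234 in pro-B libraries and between 203581 and 490734 in pre-B libraries, led by *Cd74*, an MHC class II chaperone, in all libraries but 1. *Fcer2a* (CD23), which marks mature B cells, rose 47.1-fold. Of 12 T cell markers 9 fell and none rose in wild-type mice, and the 11 with a single row in this table had sums between 7773 and 8132 in pro-B and between 3290 and 4394 in pre-B libraries, led by *Lck* throughout, with 4 to 6 of the 11 at 0 in pre-B libraries. B lineage markers were 6 higher and 1 lower of 7 in wild-type mice, and *Spn*, used for the gate, was the lower. Plasma cell markers were 1 higher and 2 lower of 6, led by *Jchain* in pro-B cells, myeloid markers 1 higher and 3 lower of 9, plasmacytoid dendritic cell markers 1 higher and 2 lower of 8, erythroid markers none higher and 1 lower of 5, and none of 8 NK cell and 5 stroma markers was called. In Sirt7-/- mice 7 of 8 mature B cell markers rose, 8 of 12 T cell markers fell, and B lineage markers were 5 higher and 1 lower. Erythroid sums, led by *Hba-a1* in all but 1 library, were 45879 in pre-B and 26507 in pro-B cells of 1 Sirt7-/- mouse and between 3271 and 11212 in the 6 other sorted libraries. The part of these cells in the changes of the 6 genes was not tested.

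The sorted cells were then compared between genotypes within each stage, which addressed whether loss of SIRT7 alters these factors in vivo. None of the 6 genes passed the threshold in pro-B cells, where 11 of 17649 genes (0.0623%) did, and 1048 had an unadjusted p under 0.05. Among the 5 abundant genes *Ikzf3* had the largest difference. It was at 9970 and 10511 in Sirt7-/- and at 16159 and 13868 in wild-type cells, and the fitted log2 fold change was -0.55 ± 0.09 (adjusted p = 0.282). *Spib* (-0.40 ± 0.08, adjusted p = 0.465), *Irf4* (-0.34 ± 0.09, adjusted p = 0.664) and *Ikzf1* (-0.29 ± 0.07, adjusted p = 0.479) were also lower in both Sirt7-/- libraries than in either wild-type library. These 4 did not overlap between genotypes, as held for 39.3% of all genes tested. *Irf8* (0.17 ± 0.11) and *Ikzf2* (0.30 ± 0.58) overlapped.

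The reads behind these values could be recovered, and tests on them differed. DESeq2 called *Ikzf3* (adjusted p = 0.000736), *Spib* (adjusted p = 0.0197) and *Ikzf1* (adjusted p = 0.0239) lower in Sirt7-/- pro-B cells among 126 genes called (0.767%), while the edgeR quasi-likelihood test called none of the 6 among 10 genes (0.0562%). The estimates were close, at -0.55 for *Ikzf3* with limma and with DESeq2. The paper, which used DESeq2, names *Ikzf3* and *Irf4* among genes regulated by SIRT7 in pro-B cells, at a false discovery rate under 0.05. *Irf4* was not called by DESeq2 here. *Il2ra* was the gene of the pre-B list that passed in the model across all genes (-1.13 ± 0.09, adjusted p = 0.0133). It was the only call among all 15 lists in pro-B cells.

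In pre-B cells again none of the 6 genes was called, where 15 genes (0.085%) passed, 7 (0.0397%) with replicate as a block, and 2405 had an unadjusted p under 0.05. *Irf4* was at 34036 and 40383 in wild-type and at 28185 and 28776 in Sirt7-/- pre-B cells (-0.38 ± 0.09, adjusted p = 0.176). *Spib* was lower by 0.31 ± 0.08 (adjusted p = 0.189), *Ikzf3* by 0.17 ± 0.09 and *Ikzf1* by 0.14 ± 0.07 on the log2 scale, whereas *Irf8* (0.18 ± 0.11) and *Ikzf2* (1.60 ± 0.58, adjusted p = 0.299) were higher. That of *Ikzf2* was 0.77 without wild-type pre-B replicate 1 (5 reads) and between 1.27 and 2.42 without any 1 of the other pre-B libraries. All 6 were without overlap between genotypes, as were 41.4% of genes tested. DESeq2 called *Irf4* (adjusted p = 0.0277) and *Spib* (adjusted p = 0.0491) among 720 genes (4.58%), and edgeR none of the 6 among 5 genes (0.0281%). No gene of the 15 lists passed in pre-B cells. Their medians on the log2 scale were 1.76 for NK cell, 1.74 for erythroid and 1.58 for plasmacytoid dendritic markers, against 0.02 over all genes. They were 0.60 for mature B and 0.51 for T cell markers, and -0.20, -0.96 and -0.98 for plasma cell, stroma and myeloid markers. The NK cell sum was 898 in Sirt7-/- replicate 2 and between 157 and 365 in the other pre-B libraries. The part of such cells in these values was not tested. The test of whether the stage change differed between genotypes called none of the 6, with 1 gene called in all (0.00567%) and 959 at an unadjusted p under 0.05. *Ikzf3* rose by 0.37 ± 0.13 more on the log2 scale in Sirt7-/- mice (adjusted p = 0.862), and *Ikzf2* fell by less, with a difference of 1.30 ± 0.82 (adjusted p = 0.955).

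The Pax5 forms were first set against EV in Pax5-/- cells, and *Ikzf3* rose with every form. *Ikzf3* was at 123 and 127 normalized counts with EV, 627 and 639 with Pax5WT, 364 and 420 with K198Q, and 1272 and 1201 with K198R. The 4 groups did not overlap, and K198R was the highest and EV the lowest. Of the 5 genes tested here, 2, 1 and 4 did not overlap with EV for Pax5WT, K198Q and K198R, as held for 42.6%, 34.2% and 46.8% of all genes. *Ikzf3* rose 5.03-fold with Pax5WT (2.33 ± 0.14, adjusted p = 0.000245), 3.11-fold with K198Q (1.64 ± 0.14, adjusted p = 0.00201) and 9.82-fold with K198R (3.30 ± 0.14, adjusted p = 2.54e-05). It was the only 1 of the 5 genes tested here that was called with Pax5WT and with K198Q. Among all 13345 genes tested, 3.25% were called with Pax5WT, 0.922% with K198Q and 9.92% with K198R. *Ikzf2*, with at most 7.4 normalized counts in any library and a value of 0 in 1 EV library, was not tested in these cells.

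With K198R, *Irf4* and *Spib* rose as well. *Irf4* was at 1520 and 768 with EV, 2392 and 2091 with Pax5WT, 2247 and 1316 with K198Q, and 4095 and 2470 with K198R, so that both K198R libraries lay above all others. The K198R difference from EV was 2.94-fold (1.56 ± 0.38, adjusted p = 0.0415), and the call was lost without EV replicate 2 (1.07, adjusted p = 0.185), K198R replicate 1 (1.19, adjusted p = 0.132) or either Pax5WT library (adjusted p = 0.0696 and 0.0697). *Spib* was at 1190 and 1110 with EV, 1126 and 855 with Pax5WT, 1389 and 1049 with K198Q, and 2487 and 1907 with K198R. It rose 1.89-fold with K198R (0.92 ± 0.20, adjusted p = 0.0251), a call lost without either EV library or K198R replicate 1, and it did not pass with Pax5WT (-0.23 ± 0.20) or K198Q (0.07 ± 0.20). *Irf8* was at 3125 and 1943 with EV, 4126 and 2942 with Pax5WT, 3948 and 2203 with K198Q, and 6481 and 3194 with K198R, with overlap between most groups and no call. When genes of low values were kept in the fit, the K198R calls of *Irf4* (adjusted p = 0.0849) and *Spib* (adjusted p = 0.0523) were both lost. *Ikzf1* lay between 7632 and 9785 in all 8 libraries and was not called with any form (0.06 ± 0.11 with K198R, adjusted p = 0.836).

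The replicates of this table were made on different days, and *Irf4* and *Irf8* were higher in replicate 1 than in replicate 2 of all 4 groups. With replicate as a block, the Pax5WT difference from EV passed for *Irf4* (1.05, adjusted p = 0.00634) and *Irf8* (0.50, adjusted p = 0.0321), making 3 of 5 genes, and the K198R difference from EV passed for *Irf8* (0.88, adjusted p = 0.00142), making 4 of 5. The block raised the share of all genes called as well, to 10.1% with Pax5WT and 21.2% with K198R. Leaving out 1 library, in fits without the block, moved the Pax5WT difference to between 0.56 (without EV replicate 2) and 1.54 (without EV replicate 1) for *Irf4* and between 0.16 and 0.84 for *Irf8*, again without EV replicate 2 and 1. The K198R difference of *Irf8* moved to between 0.37 without K198R replicate 1 and 1.40 without K198R replicate 2. Within a replicate number, *Irf4* was 1.57-fold and 2.72-fold higher with Pax5WT than with EV, and 2.69-fold and 3.22-fold higher with K198R. *Irf8* was 1.32-fold and 1.51-fold higher with Pax5WT and 2.07-fold and 1.64-fold higher with K198R. The plasmacytoid dendritic cell markers, of a cell type that depends on IRF8, were likewise higher in replicate 1 in every group, with sums of 19826 and 16064 with EV, 8752 and 5710 with Pax5WT, 14157 and 10311 with K198Q, and 8585 and 3299 with K198R. Their most abundant genes were *Ly6c2*, *Ccr9*, *Cox6a2*, *Bst2* and *Runx2*, 1 of the 8 markers was at 0 in each library, and *Siglech*, which marks these cells, was at 2160 and 1439 with EV and at 366 and 76.2 with K198R. The part of such cells in the values of *Irf8* was not tested.

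**Figure D2:**
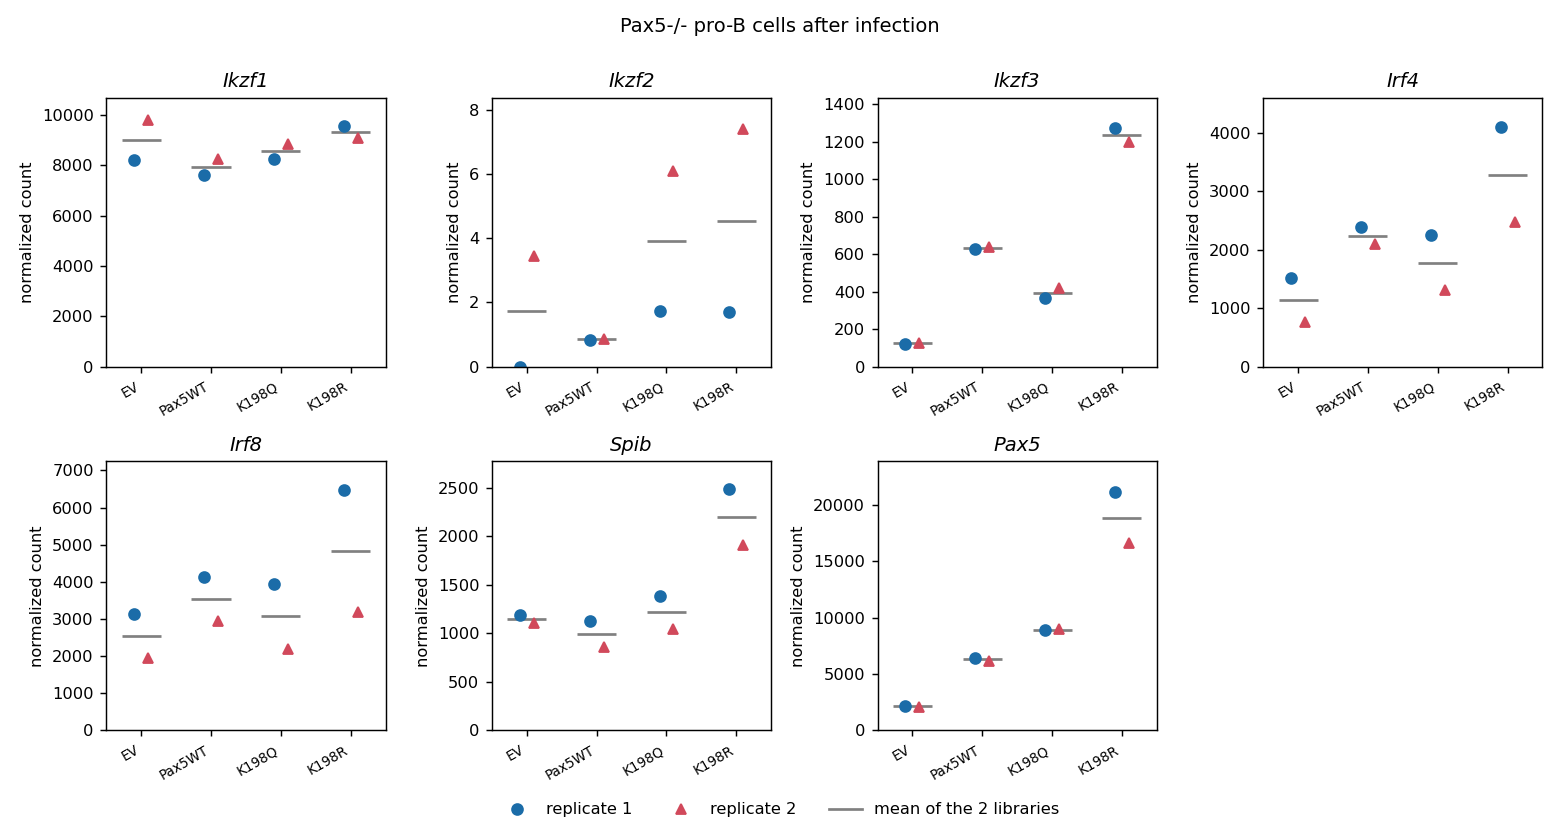
Normalized counts of the 6 genes and *Pax5* (linear axis from 0) in Pax5-/- cells by retrovirus, with a circle for replicate 1, a triangle for replicate 2 and a line at their mean. *Ikzf3* separates the groups from 123 with EV to 1272 with K198R, *Ikzf1* lies between 7632 and 9785 throughout, and *Pax5* itself is highest with K198R.

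The forms were next compared with each other, which addressed how these genes differ between forms. These comparisons share libraries with those against EV. The *Pax5* transcript was 2.97-fold higher with K198R than with Pax5WT, and the part of the residue against that of the level was not tested. K198R exceeded Pax5WT for *Ikzf3* (1.95-fold, 0.96 ± 0.14, adjusted p = 0.0142) and *Spib* (2.22-fold, 1.15 ± 0.20, adjusted p = 0.0263), 2 of 5 genes, while 2.87% of all genes were called, 383 in number with all libraries and 21 without Pax5WT replicate 2. Within the replicate numbers *Spib* was 2.21-fold and 2.23-fold higher and *Ikzf3* 2.03-fold and 1.88-fold higher. The *Spib* call was lost without either EV library, either Pax5WT library or K198R replicate 1, with adjusted p between 0.0536 and 0.193, and when genes of low values were kept in the fit (adjusted p = 0.06). The *Ikzf3* call was lost without either Pax5WT library (adjusted p = 0.109 and 0.135). *Irf4* (0.51 ± 0.38) and *Irf8* (0.39 ± 0.41) were not called. K198Q against Pax5WT called none of the 5 genes, with 3 genes called in all (0.0225%) and 462 at an unadjusted p under 0.05. Both K198Q libraries were nonetheless below both Pax5WT libraries for *Ikzf3* (-0.69 ± 0.14, adjusted p = 0.34). In this comparison 2 of the 5 genes did not overlap, against 28.7% of all genes.

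K198R exceeded K198Q for *Ikzf3* (3.15-fold, 1.66 ± 0.14, adjusted p = 0.00306), 1 of 5 genes against 5.01% of all genes. With replicate as a block, *Irf4* (0.89, adjusted p = 0.0107), *Irf8* (0.63, adjusted p = 0.0113) and *Spib* (0.85, adjusted p = 0.00178) passed as well, making 4 of 5 while 13.1% of all genes were called with the block. The fits without the block gave adjusted p of 0.292, 0.531 and 0.0536 for these. Leaving out 1 library, again without the block, moved *Irf4* to between 0.50 (without K198Q replicate 2) and 1.27 (without K198Q replicate 1), and *Irf8* to between 0.12 (without K198R replicate 1) and 1.14 (without K198R replicate 2). *Pax5* transcript was 2.10-fold higher with K198R than with K198Q (adjusted p = 0.00526), and with K198Q the libraries stood above those with Pax5WT, at 8918 and 8963 against 6458 and 6152.

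Genes of the pre-B list rose with each form. Of its 16 genes tested, 8 rose and 1 fell with Pax5WT (median on the log2 scale of 0.56), 4 rose with K198Q, and 10 rose and 1 fell with K198R (median of 0.77). *Blnk*, the adaptor on which pre-BCR signaling depends, rose by 7.67 ± 0.27 with Pax5WT and by 9.51 ± 0.27 with K198R on the log2 scale, *Rag1* rose 10.1-fold and *Foxo1*, which drives the *Rag* genes, 2.37-fold with K198R, and the gene that fell was *Cd2* (-2.88 ± 0.31). Between K198R and Pax5WT, 5 rose and 1 fell, and between K198R and K198Q, 9 rose and 2 fell. Among 10 pro-B and large pre-B genes, 3 rose with Pax5WT, 3 with K198Q and 2 with K198R, where *Mycn* fell (-1.41 ± 0.31).

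Of the 9 Ikaros and IRF relatives none was called with Pax5WT or K198Q, and with K198R 1 fell and none rose. Of 7 ETS genes, *Ets1* and *Erg* rose with Pax5WT (1.22 ± 0.15 and 0.93 ± 0.12) and with K198R (1.27 ± 0.15 and 1.24 ± 0.12), and *Ets1* with K198Q. Of 12 NuRD genes, *Chd3*, an ATPase of the complex, rose 6.61-fold with Pax5WT and 6.34-fold with K198Q and was lower with K198R than with either (-2.88 ± 0.35 and -2.82 ± 0.35), and *Mbd2* rose with K198R (0.66 ± 0.09). Early B lineage factors were 2, 2 and 3 higher of 8 with the 3 forms, *Ebf1*, the factor that specifies the lineage with E2A, among them each time. B lineage markers were 4, 3 and 5 higher of 7, and this list shares *Cd79a*, *Cd79b* and *Ebf1* with others.

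Markers of other cells also changed with K198R. T cell markers were 4 lower of 6 tested, NK cell markers 2 of 5, plasmacytoid dendritic cell markers 3 of 7, and plasma cell markers 1 of 4, namely *Jchain* (-1.19 ± 0.13), the gene that led the plasma cell sums of 86916 and 86042 with EV and 51065 and 42617 with K198R. Myeloid markers were 1 higher and 2 lower of 5, mature B cell markers 2 higher and 2 lower of 7, stroma markers 1 lower of 5, and no erythroid marker reached the filter. With Pax5WT, 1 marker changed in each of the T cell, NK cell, myeloid, plasmacytoid dendritic, plasma, mature B and stroma lists, and with K198Q none did.

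**Figure D3:**
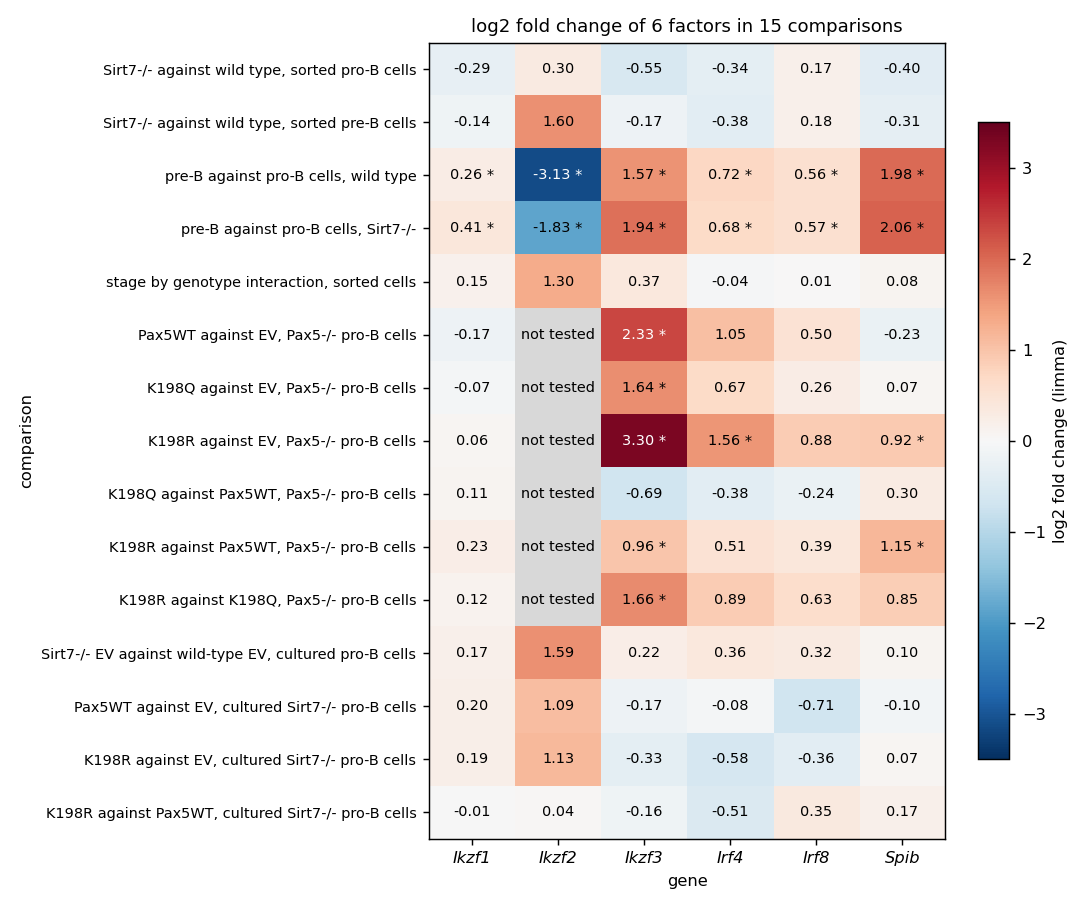
Log2 fold changes (limma) of the 6 genes, in columns, in the 15 comparisons, in rows, as color and number, with an asterisk where the adjusted p was under 0.05 and grey where the gene was not tested. The stage rows carry asterisks for all 6 genes, *Ikzf3* has one with each Pax5 form against EV in Pax5-/- cells, and the rows of the cultures with their own *Pax5* have none.

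In cultured pro-B cells that kept their own *Pax5*, no comparison called any of the 6 genes with all libraries and no replicate block. In Sirt7-/- against wild-type cells with EV, 76 of 13651 genes were called (0.557%) and 1322 had an unadjusted p under 0.05. *Ikzf3* was at 9033 and 7244 in wild-type and at 9527 and 9383 in Sirt7-/- cells, and *Irf4* at 5608 and 5600 against 6627 and 7851 (0.36 ± 0.14, adjusted p = 0.424). *Spib* was at 11507 and 10389 against 11787 and 11676. All 3 were higher in both Sirt7-/- libraries than in either wild-type library, as was *Ikzf2*, which was at 6.9 and 8.8 in wild-type and at 21.7 and 30.3 in Sirt7-/- cells (1.59 ± 0.52, adjusted p = 0.308). These 4 of 6 did not overlap, against 34.6% of all genes. For *Ikzf2*, both wild-type libraries lay below the minimum count for testing, so it entered the test only through the Sirt7-/- libraries. Entry by that route favors a higher value in Sirt7-/- cells, which limits its fold change and its place among these 4. *Irf8* was at 10803 and 4772 in wild-type and at 13158 and 6147 in Sirt7-/- cells, and *Ikzf1* at 7527 and 8839 against 7805 and 10828, with overlap in both.

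Added Pax5WT called none of the 6 in Sirt7-/- cells, where 5 genes were called (0.0366%) and 1353 had an unadjusted p under 0.05. *Ikzf3* was at 8999 and 7819, *Irf4* at 6036 and 7735, *Irf8* at 7160 and 4224, and *Spib* at 12010 and 9950 with Pax5WT. *Ikzf3*, with both libraries below both EV libraries, *Irf4* and *Spib* had fitted differences of -0.17, -0.08 and -0.10 on the log2 scale, and *Irf8* had a difference of -0.71 ± 0.46, which was -0.16 without EV replicate 1 and -1.26 without EV replicate 2. Added K198R also called none, against 4.83% of all genes, of which 2512 had an unadjusted p under 0.05. *Irf4* was the nearest to a call, at 4917 and 4714 with K198R and 6627 and 7851 with EV (-0.58 ± 0.14, adjusted p = 0.056), and with replicate as a block it passed (adjusted p = 0.0166), where 11.6% of all genes did. It also passed without either Pax5WT library. *Ikzf3* was at 7194 and 7884 with K198R (-0.33 ± 0.13, adjusted p = 0.225). *Irf8* was at 7681 and 6387, *Spib* at 11344 and 13339, and *Ikzf1* at 8206 and 13493. *Ikzf2* was at 72.6 and 45.5 with K198R and at 34.9 and 89.2 with Pax5WT, above both EV libraries in each case (1.13 ± 0.52 and 1.09 ± 0.52). The Pax5WT difference was 0.43 without Pax5WT replicate 2 and 1.76 without replicate 1, and that of K198R between 0.80 and 1.46 without K198R replicate 1 and 2. With K198R 3 of 6 genes did not overlap with EV, against 49.6% of all genes, and with Pax5WT 2 of 6, against 38.7%. K198R against Pax5WT called none of the 6, with 0.425% of all genes called, 1199 at an unadjusted p under 0.05, and *Irf4* lower by 0.51 ± 0.14 on the log2 scale (adjusted p = 0.22).

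The *Pax5* transcript of these cultures was 1.39-fold higher with Pax5WT and 1.35-fold higher with K198R than with EV, and neither difference passed (adjusted p = 0.426 and 0.241). *Irf8* was higher in replicate 1 and *Ikzf1* in replicate 2 of all 4 groups. In the lists, *Cd22*, an inhibitory coreceptor, was the call among 17 pre-B genes in Sirt7-/- against wild-type cells (3.76 ± 0.55, adjusted p = 0.0351). Among 10 pro-B and large pre-B genes *Il7r* (-0.89 ± 0.12) and *Ccnd3* (-0.71 ± 0.11) fell, and *Bcl11b* was lower among 6 T cell markers. *Bcl11b* had no counts in any Sirt7-/- library, so it entered the test only through the wild-type libraries and could only be lower. Added Pax5WT called no gene of any list. With K198R against EV, *Cd79a* rose and *Il2ra* fell (-2.61 ± 0.44) among the pre-B genes, *Vpreb3*, *Il7r* and *Cdk6* fell among the pro-B genes, *Irf1* fell (-0.61 ± 0.13) among 8 Ikaros and IRF relatives, and *Chd3* rose (0.79 ± 0.10) among 12 NuRD genes. *Vpreb3* and *Il7r* were also lower with K198R than with Pax5WT. No ETS gene and no early B lineage factor was called in the cultures.

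Mature B cell markers were 5 higher and 1 lower of 7 with K198R, led by *Ighd*, which encodes the IgD heavy chain. Their sums were 1616 and 1940 in wild-type libraries, 3298 and 4641 in Sirt7-/- libraries with EV, 7635 and 17750 with Pax5WT and 16351 and 43816 with K198R. *Cd74* rose 9.08-fold and *H2-Aa* 19.6-fold with K198R. Plasma cell markers were 3 lower of 5 with K198R, T cell markers 2 lower of 6 and myeloid markers 1 lower of 3, and no NK cell, plasmacytoid dendritic or stroma marker was called. The part of these cells in the values of the 6 genes was not tested.

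**Figure D4:**
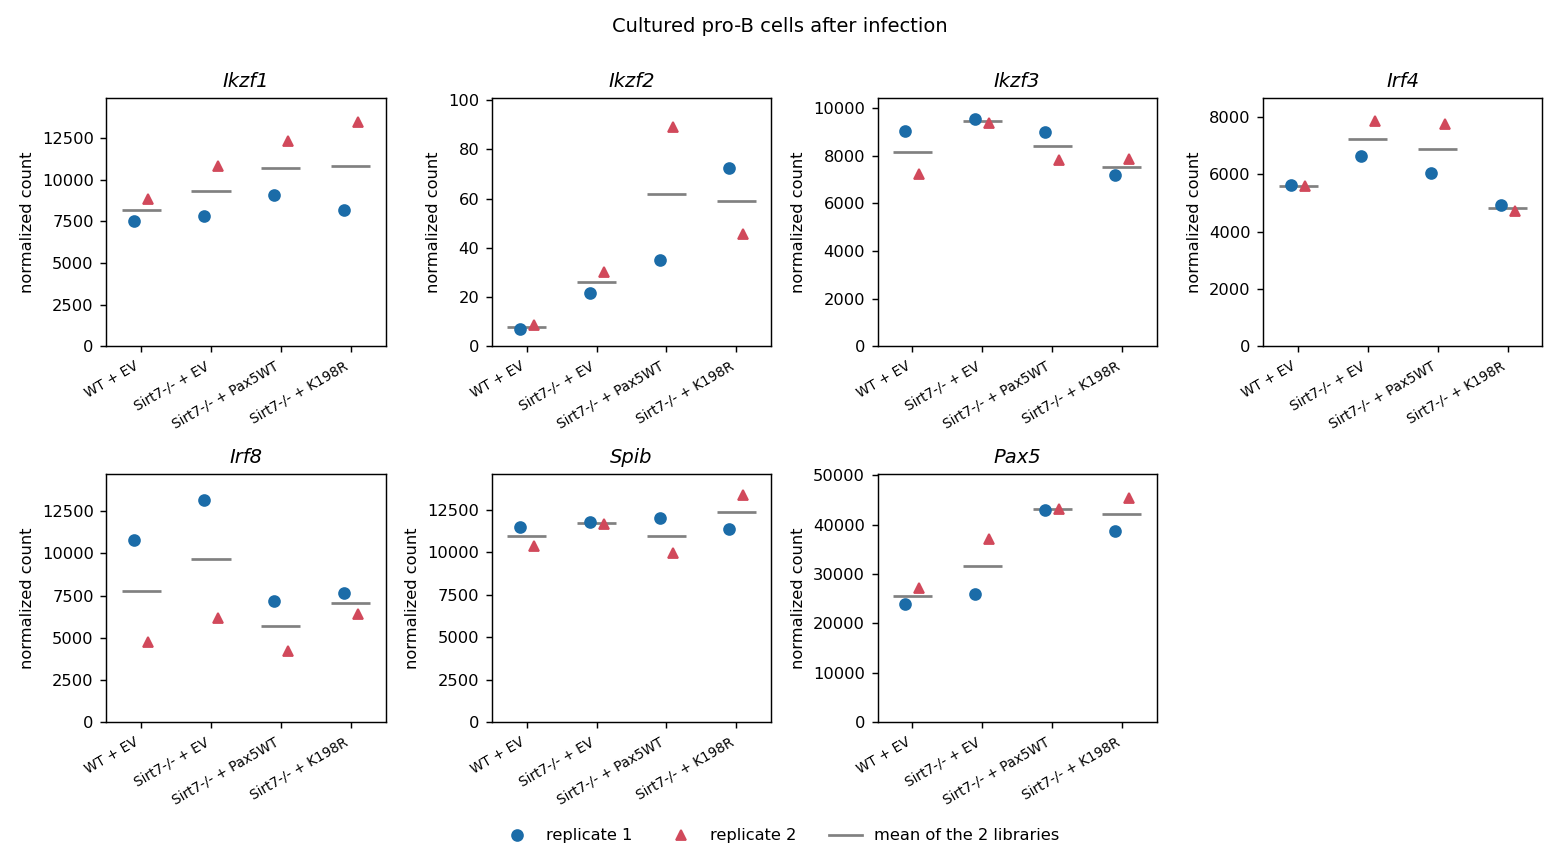
Normalized counts of the 6 genes and *Pax5* (linear axis from 0) in cultured wild-type and Sirt7-/- pro-B cells by retrovirus, with a circle for replicate 1, a triangle for replicate 2 and a line at their mean. *Irf4* with K198R (4917 and 4714) lies below the Sirt7-/- EV libraries (6627 and 7851), and *Irf8* is spread widely between the replicates of a group.

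Levels were compared between genes only as normalized counts per kb of merged exons, and only within a table, since tables were normalized separately. In wild-type pre-B cells the order of this level was *Spib* (70586 ± 2995 (SD, n = 2) per kb), *Irf4* (7589 ± 915), *Ikzf3* (5062 ± 207), *Ikzf1* (4124 ± 48.0), *Irf8* (2438 ± 54.1) and *Ikzf2* (1.02 ± 0.81), with no overlap between neighbors. In wild-type pro-B cells *Spib* (17930 ± 365), *Irf4* (4607 ± 139) and *Ikzf1* (3442 ± 26.7) led, and *Ikzf3* (1715 ± 185) and *Irf8* (1658 ± 154) overlapped. *Ikzf3* thus ranked 4 in pro-B and 3 in pre-B cells. In Sirt7-/- mice the pre-B order was the same and in pro-B cells *Irf8* (1860 ± 135) stood above *Ikzf3* (1170 ± 43.6) without overlap.

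In Pax5-/- cells with EV the order was led by *Ikzf1* (1558 ± 193 per kb), with *Spib* (401 ± 19.7), *Irf8* (359 ± 118) and *Irf4* (233 ± 108) overlapping as neighbors, and *Ikzf3* at 14.3 ± 0.38. With K198R *Ikzf3* reached 141 ± 5.80 per kb and still ranked 5. In wild-type cultures *Spib* led (3817 ± 276), then *Ikzf1* (1417 ± 161) and the overlapping *Irf4* (1143 ± 1.21), *Irf8* (1104 ± 604) and *Ikzf3* (930 ± 144), and *Ikzf2* was last (0.68 ± 0.11). The order rests on the length used. With the longest coding transcript of each gene it changed in 10 of 12 groups, and *Spib* stayed first in the sorted and cultured tables and *Ikzf1* in the Pax5-/- table.

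The genes of most similar pattern were ranked by Pearson's r over the 24 RNA libraries, after subtracting the mean of each table, among 10505 genes present in all tables. The libraries share their tables and groups, so r is given as a description. For *Ikzf3* they were *Atp1b1* (r = 0.97), *Scn4a* (0.97) and *Cd55* (0.95), and for *Irf4* *Scn4a* (0.86), *Atp1b1* (0.84) and *Prkx* (0.83). For *Spib* they were *Plekha2* (0.94), *Arel1* (0.94) and *Slc9a7* (0.93), and these fell to between 0.661 and 0.678 over the 16 libraries without the sorted table. *Irf8* was nearest to *Traf3ip2* (0.87), *Ormdl3* (0.85) and *Chst3* (0.85), *Ikzf1* to *Ralgps2* (0.93), *Stk17b* (0.84) and *Usp53* (0.83), and *Ikzf2*, whose counts in the Pax5-/- table are very low, to *Sort1* (0.89), *Tubd1* (0.87) and *Lxn* (0.86). The order depended on the tables for other members as well. Without the Pax5-/- table the 3 genes named for *Ikzf3* ranked 97 to 537 and those for *Irf4* 214 to 366, and without the cultures *Stk17b* and *Usp53* ranked 372 (r = 0.742) and 823 (r = 0.689) for *Ikzf1* and *Sort1* ranked 341 for *Ikzf2*. *Ralgps2* ranked 1 for *Ikzf1* without any of the tables in turn. Among the 6 genes the highest r was that of *Ikzf3* with *Irf4* (0.82), which lay between 0.497 and 0.941 within the tables. *Ikzf2* had a negative r with each of *Ikzf3*, *Irf4*, *Irf8* and *Spib*, between -0.896 and -0.649 within the sorted table. Elsewhere the sign varied, *Ikzf2* being at 0.324 with *Ikzf3* and 0.25 with *Spib* within the Pax5-/- table and at 0.127 with *Irf4* within the cultures. *Ikzf1* with *Irf8* was at -0.25 over all tables, 0.588 within the sorted table and -0.678 within the cultures.

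Pax5 peaks were then placed over the genes, which addressed where the forms bind these loci in Pax5-/- cells. The lists held 10646 and 11830 peaks for Pax5WT, 3750 and 3957 for K198Q, and 12158 and 13997 for K198R, so K198Q had fewer peaks in the whole genome as well. Peaks present in both lists of a form numbered 11 over the 6 genes for Pax5WT, 5 for K198Q and 15 for K198R. They fell on 4 of 6 genes for Pax5WT, against 26.5% of 21938 protein-coding genes with such a peak, on 3 of 6 for K198Q, against 9.8%, and on 5 of 6 for K198R, against 30.3%. The genes differ in length, from 6.08 kb for *Spib* to 156 kb for *Ikzf2*. Together the lists placed 26 regions, 5 of them in all 6 lists and 2 in 5 lists, at *Spib*, *Irf8* and *Ikzf3*.

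*Spib*, on chromosome 7 (44525993 to 44532071, minus strand, mm10), had the densest peaks. The region 4.34 kb upstream, printed above with its Pax5 core, had a fold enrichment over input of 16 and 8.57 with Pax5WT, 6.65 and 11.4 with K198Q, and 12 and 10.5 with K198R. A region 2.38 kb upstream, in a coding exon of *Pold1*, had 6.35 and 8.21, then 5.19 and 5.22, then 8.85 and 14.5. An intron 0.691 kb after the start had 4.93 and 7.5, then 9.02 and 5.16, then 9.02 and 7.65. All 3 were therefore in every list. The forms overlapped at the first, K198Q was lowest at the middle one, and K198R was above Pax5WT at the last. A coding exon 3.84 kb after the start was in 5 of 6 lists, missing in K198Q replicate 2, and an untranslated exon at 4.43 kb was in both K198R lists only.

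*Irf8*, on chromosome 8 (120736358 to 120756694, plus strand), held peaks in introns. The region 11.1 kb after the start had a fold enrichment of 10 and 17.3 with Pax5WT, 5.11 and 9.47 with K198Q, and 15.6 and 16 with K198R. That at 9.87 kb, with the printed ETS-IRF element, had 6.29 and 8.37 with Pax5WT, 6.63 in K198Q replicate 1 alone, and 13.2 and 15.5 with K198R. Both K198Q values at 11.1 kb lay below those of the other forms. A further peak 10.9 kb upstream, just beyond the 10 kb limit, was in all 6 lists (16.6 and 14.6, then 9.65 and 7.32, then 10.5 and 16.4). The gene lies inside the annotated locus *Gm20388*.

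*Ikzf3*, on chromosome 11 (98464902 to 98546031, minus strand), had 1 region in all 6 lists, the printed intron at 52.8 kb, with 10.9 and 9.04 with Pax5WT, 7.92 and 6.67 with K198Q, and 14.1 and 10.4 with K198R. Its fold enrichment was lowest in both K198Q lists and highest in K198R replicate 1. The start itself (0.054 kb) had 3.23 and 5.59 with Pax5WT and 5.33 and 5.19 with K198R, and the region at 61.5 kb had 4.81 and 5.32, and 7.85 and 5.18, and neither was in a K198Q list. A pair of further regions past the gene end, at 86.7 kb and 88.1 kb from the start, were in all 6 lists. *Irf4*, on chromosome 13 (30749226 to 30766976, plus strand), had both printed introns in both lists of Pax5WT (7.78 and 6.06 at 2.13 kb, 6.41 and 6.86 at 12.4 kb) and of K198R (4.9 and 9.2, 6.69 and 6.44) and in neither list of K198Q, which had a peak at the start in replicate 1 alone (5.34).

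*Ikzf1*, on chromosome 11 (11685003 to 11772926, plus strand), had weaker and less repeatable peaks. The region at 1.16 kb was in Pax5WT replicate 2 (4.52) and both K198R lists (4.7 and 4.86), that at 5.3 kb in both K198R lists, and no peak of K198Q lay on it. *Ikzf2*, on chromosome 1 (69531214 to 69687245, minus strand), had no peak in any list. A gene with no listed peak is one where no peak passed the q threshold of 0.05 with these libraries. The methods list nearly equal numbers of clean reads for the 6 ChIP libraries, and fold enrichment was compared as values without a test.

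**Figure D5:**
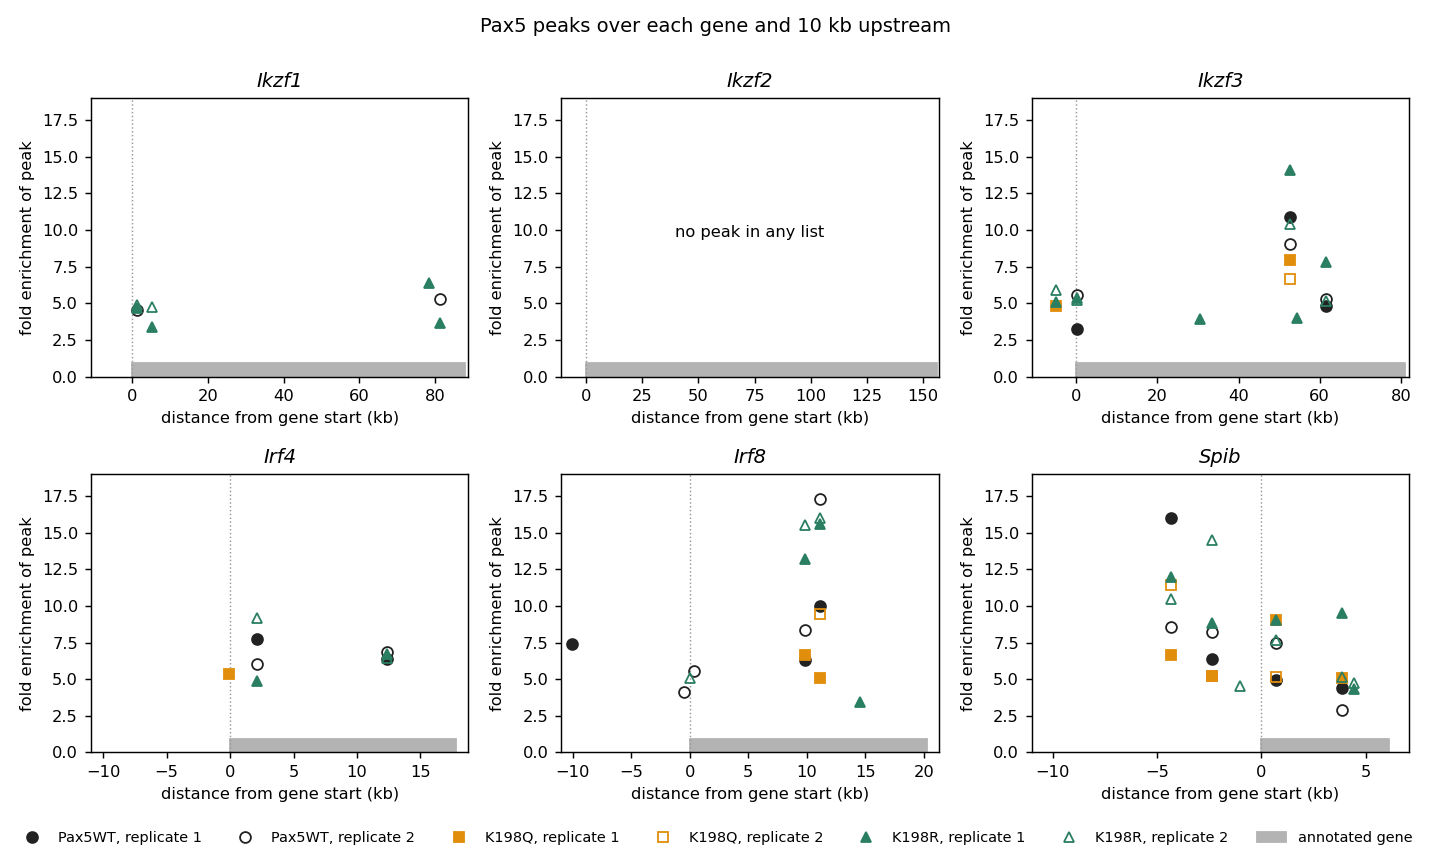
Fold enrichment of each Pax5 peak (vertical axis, from 0) by distance from the gene start in kb in the direction of transcription, for each gene and 10 kb upstream. Circles are Pax5WT, squares K198Q and triangles K198R, filled for replicate 1 and open for replicate 2, and the grey bar is the annotated gene. *Spib* has 3 regions in every list, *Ikzf3* and *Irf8* have 1 each, *Irf4* has 2 shared by Pax5WT and K198R only, and *Ikzf2* has none.

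Of the 26 regions, 5 (19.2%) held a Pax5 core within the window, against 14.5% to 18.4% of all summits in the lists. An Ikaros core was in 8 (30.8%), against 13.9% to 15.1%, and an ETS-IRF or interferon-type element in 1 (3.85%), against 9.09% to 9.57%. In shorter windows around the summit the counts were 3 (11.5%, against 9.27% to 12.6%), 4 (15.4%, against 7.11% to 7.95%) and 1 (3.85%, against 4.33% to 4.91%). With so few regions these shares are descriptions, and a window without a match holds only none of these letters. The strict Pax5 core was in the printed *Spib* upstream window and in an *Ikzf1* intron at 81.3 kb.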

How the data were processed

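RNA-seq was measured in 24 libraries and Pax5 ChIP–seq in 6 peak lists. For RNA, the authors quantified polyA libraries with Salmon against mm10 with GC-bias correction, imported them with Tximeta and scaled them with DESeq2, and the deposited signal is the estimated count of a gene normalized between libraries by the median of ratios. For ChIP, the authors aligned with Bowtie2 to mm10, removed duplicates and called peaks against input with MACS2 in each replicate at a q-value under 0.05, and the deposited lists give fold enrichment and −log10 q of each peak. Versions of Salmon, Tximeta, DESeq2, Bowtie2 and MACS2 are not given in the sources used here. Some genes are not reported here. The input libraries were not used here, and the K198R list used as replicate 2 has another number in its peak names.

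All values of the sorted table were whole multiples of 1 read (100% of values, tolerance 0.01), so reads were recovered and the count tests run on them. In the other tables between 11.8% and 54.9% of values were whole multiples, and read depth is unknown. The members and gene lists were chosen with earlier results of these data known. Genes that reached 10 normalized counts in 2 or more of a table's 8 libraries entered the test, on log2(normalized count + 1) with limma 3.58.1 (R 4.3.3, trended variance, the 4 groups of a table in 1 fit, two-sided, 4 residual degrees of freedom), with Benjamini-Hochberg adjustment over all genes tested and an adjusted p under 0.05. Fold changes are on this scale and understate those of low genes. The step was tested on simulated data. The text names the 6 genes, *Sirt7* and *Pax5*, up to 4 called genes of each list with the largest change, and the 3 genes of highest r for each member. *Syk*, *Irf2* and *Vpreb3* (stage), *Chd3* (stage, Sirt7-/-), *Foxo1* (Pax5-/- cells) and *Ighd* (cultures) fall outside this rule and were chosen after their values were seen. Alternatives were edgeR 4.0.16 and DESeq2 1.42.0 on reads, a pseudocount of 5, no filter, TMM scaling, a replicate block, a log2 threshold of 1.5, and leaving out each library. Peaks were counted over the gene and 10 kb upstream (GENCODE M21) with an overlap of at least 1 base, and sequences read with pysam 0.24.0 from RefSeq GRCm38.p6.

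Both stages came from the same mouse, so the stage libraries are paired by animal (correlation of deviations from group means of 0.156 in Sirt7-/- and 0.0798 in wild-type mice). The stage p-values above come from the fit that did not use this pairing. With each mouse as a block, all 6 genes were also called between stages in each genotype. The methods state that RNA-seq replicates were made on different days, and deviations of same-numbered libraries correlated at 0.264 to 0.383 in Pax5-/- cultures, 0.156 to 0.428 in the other cultures, and 0.0554 and 0.0408 between genotypes in sorted pro-B and pre-B cells. The limma p-values rest on the spread between the 2 libraries of a group, pooled over the 4 groups of a table. Groups outside a comparison, and the spread of other genes, therefore also enter its p-values.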

Additional observations from a re-analysis of the deposited data

Results flagged for a closer look

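Several genes had opposite directions in tables that were normalized separately, with every library of 1 group on 1 side. The difference between the tables was not tested in any of these cases, and the share of all genes with such opposite directions was not counted. In Sirt7-/- against wild-type pro-B cells, *Ikzf3* had a log2 fold change of -0.5482 in sorted and 0.225 in cultured cells, *Irf4* of -0.342 and 0.3641, and *Spib* of -0.3962 and 0.1016. None of these values was called by limma. In these comparisons 39.3% of all genes tested in sorted and 34.6% in cultured cells did not overlap between genotypes, in either direction. On the reads of the sorted table DESeq2 called *Ikzf3* (adjusted p = 0.000736) and *Spib* (adjusted p = 0.0197) and edgeR neither.

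Some fitted differences of a Pax5 form from EV or from Pax5WT, those of *Ikzf3* and *Irf4* below, also had opposite signs in Pax5-/- cells and in Sirt7-/- cells with their own *Pax5*. In the latter, limma without a replicate block called none of them. For Pax5WT against EV, *Ikzf3* was at 2.332 in the former and -0.1727 in the latter. For K198R against EV, *Ikzf3* was at 3.296 and -0.3281 and *Irf4* at 1.557 and -0.5832. With replicate as a block, that difference of *Irf4* passed in the Sirt7-/- cells, as given above. For K198R against Pax5WT, *Irf4* was at 0.5079 and -0.5051, and neither passed (adjusted p = 0.731 and 0.22). The former was between 0.1433 and 0.8725 when 1 library was left out. Pax5WT did not overlap with EV for 42.6% of all genes tested in Pax5-/- cells and 38.7% in Sirt7-/- cells. For K198R these shares were 46.8% and 49.6%.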

How the results depend on the processing

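Of 284 recomputed values of the 20 called member values, 37 lost the call and 0 reversed, and 14 uncalled values gained one. DESeq2 called 3 members in Sirt7-/- against wild-type sorted pro-B cells and 2 in pre-B cells, where limma called 0, and 126, 720 and (for the interaction) 104 genes, while edgeR called 5 genes in pre-B cells. With a log2 fold change of at least 1.5 also required, 3 members stayed called between stages in each genotype, 2 between K198R and EV, and 0 between K198R and Pax5WT in Pax5-/- cells. With no filter, 5 members were called between stages in Sirt7-/- mice, where *Ikzf2* was lost, and 1 each for K198R against EV (without *Irf4* and *Spib*) and against Pax5WT (without *Spib*) in Pax5-/- cells. The cause of these changes was not tested.

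With a replicate block, 3 members were called for Pax5WT against EV and 4 for K198R against EV and against K198Q in Pax5-/- cells, and 1 for K198R against EV in the Sirt7-/- cultures. The block changed no other count of members. The block gave 1343, 363, 2834, 29, 1004 and 1749 genes in the Pax5-/- comparisons (Pax5WT, K198Q and K198R against EV, K198Q and K198R against Pax5WT, K198R against K198Q) and 288, 268, 1588 and 314 in the cultured comparisons, in the order of the report. For sorted genotypes it gave 7 genes in pre-B cells, and with each mouse as a block the interaction gave 0. With no filter, 260, 73, 231, 387, 44, 423 and 16 genes were called for Pax5WT and K198Q against EV, K198R against Pax5WT and K198Q, then Sirt7-/- against wild type, K198R against EV and against Pax5WT in the cultures. The 1.5 threshold left 2451 and 1809 genes between stages, 203, 612, 213 and 337 in Pax5-/- cells (Pax5WT and K198R against EV, K198R against Pax5WT and K198Q), and 346 and 36 with K198R in the cultures.

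Leaving out 1 library gave 5 to 6 members between stages, 1 to 3 for K198R against EV and 0 to 2 against Pax5WT in Pax5-/- cells, 0 to 1 for K198R against EV in the cultures, and the same count as with all libraries elsewhere. The genes called in all moved by more. They numbered 0 to 14 and 2 to 195 between genotypes in sorted pro-B and pre-B cells, 4700 to 7323 and 3720 to 6054 between stages in wild-type and Sirt7-/- mice, and 0 to 14 for the interaction. In Pax5-/- cells they numbered 89 to 664, 31 to 155 and 567 to 1477 for Pax5WT, K198Q and K198R against EV, 0 to 2 and 21 to 573 for K198Q and K198R against Pax5WT, and 32 to 916 for K198R against K198Q. In the cultures they numbered 3 to 73, 1 to 5, 63 to 642 and 2 to 38. Single peak lists held 12 to 15 peaks for Pax5WT, 5 to 9 for K198Q and 17 to 20 for K198R. With 50 kb upstream Pax5WT had 18 peaks in both lists, and with 2 kb K198Q had 3. Depth limits *Ikzf2*, which had 5 to 141 reads in the sorted libraries.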
